A study of Mus musculus with 6 samples.

Results

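Transcripts of 10 genes of mitochondrial dynamics and mitophagy were followed in RNA of crude heart mitochondria from mice that had lost Polrmt, the RNA polymerase of mitochondria, in striated muscle. The genes were chosen by name, as the rows of the count files that map to Pink1, Mfn1, Mfn2, Opa1, Dnm1l, Fis1, Mff, Bnip3, Bnip3l and Fundc1, and all 10 were found among 39142 nuclear gene rows. The control group, written L/L, held 3 C57BL/6N mice of 3 to 4 weeks with a loxP-flanked exon 3 of Polrmt and no cre, listed as Polrmt +/+. The knockout group, written L/L, cre and listed as Polrmt -/-, held 3 mice of the same strain and age that also carried cre under the muscle creatine kinase promoter. This promoter is active in heart and skeletal muscle, so cells of the heart other than muscle are not targeted. The labels give separate replicates of each group and each is taken as 1 mouse. Where that does not hold, the p-values measure only the spread between these libraries. The series title concerns how POLRMT divides its activity between priming replication and transcribing mtDNA, and the comparison used here asks which nuclear transcripts of the preparation differ when the polymerase is removed.

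Mitochondria form a network that is remodelled by fusion and fission. Mitofusins, encoded by Mfn1 and Mfn2, join outer membranes and OPA1 joins inner membranes, while DRP1, encoded by Dnm1l, is recruited to the surface by adaptors such as MFF and FIS1 and constricts the organelle. Damaged mitochondria are removed by mitophagy, either after the kinase PINK1 accumulates on their surface and starts their tagging with ubiquitin, or through outer membrane receptors such as BNIP3, NIX (encoded by Bnip3l) and FUNDC1 that bind the autophagosome directly. Heart muscle, which is packed with mitochondria, depends on these processes.

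Libraries held between 2867067 and 3234729 gene-assigned counts in controls and between 1062030 and 1227997 in knockouts, but nuclear genes made up 16.5% to 20.5% of these in controls and 74.2% to 78.9% in knockouts. Scaling was therefore done on nuclear counts (TMM factors of edgeR), and CPM below means counts scaled to a common nuclear library size (CPM). Every direction below is relative to nuclear transcripts. At 5 loci that collect ribosomal RNA reads lay 80.6% to 84.9% of nuclear counts, which left 76949 to 164004 counts per library for all other nuclear genes, so that 3 counts were worth between 3.10 and 6.60 CPM. Polrmt itself had 3, 2 and 1 counts in controls and 2, 5 and 1 in knockouts, and a gene-level count does not resolve exon 3, and these few counts are no check on the deletion or on how the mice were labelled. The heart muscle markers Myh6, Tnnt2, Actc1, Ttn, Tnni3, Ryr2 and Mb were all present and together reached 19121 to 24649 CPM in controls and 19730 to 20773 CPM in knockouts. RNA was measured in the mitochondrial preparation and not in whole heart, and fewer cells of a type and less RNA per cell cannot be told apart in it. The share of each nuclear transcript that is recovered with the mitochondria was not measured, so a level here need not follow the level in the cell.

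Of the 10 genes, Pink1 was lower in the knockouts, and the 4 others with enough counts for the test, Mfn1, Mfn2, Opa1 and Dnm1l, did not pass it. The remaining 5, Fis1, Mff, Bnip3, Bnip3l and Fundc1, did not pass the low-count filter and are given by their counts. Thus 1 of 5 tested genes was lower and 0 were higher (edgeR adjusted p under 0.05), and DESeq2 gave the same counts. Over all 2351 tested nuclear genes, 6.85% were lower and 8.46% higher. In either direction 15.3% of tested genes were called, and DESeq2 called 2.13% lower and 3.96% higher. At an unadjusted p under 0.05 edgeR had 1 of the 5 lower and 0 higher, against 13.8% and 14.5% of all tested genes. With 1 gene called of 5, the count says little about the group, and the result is about Pink1.

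**Figure D1:**
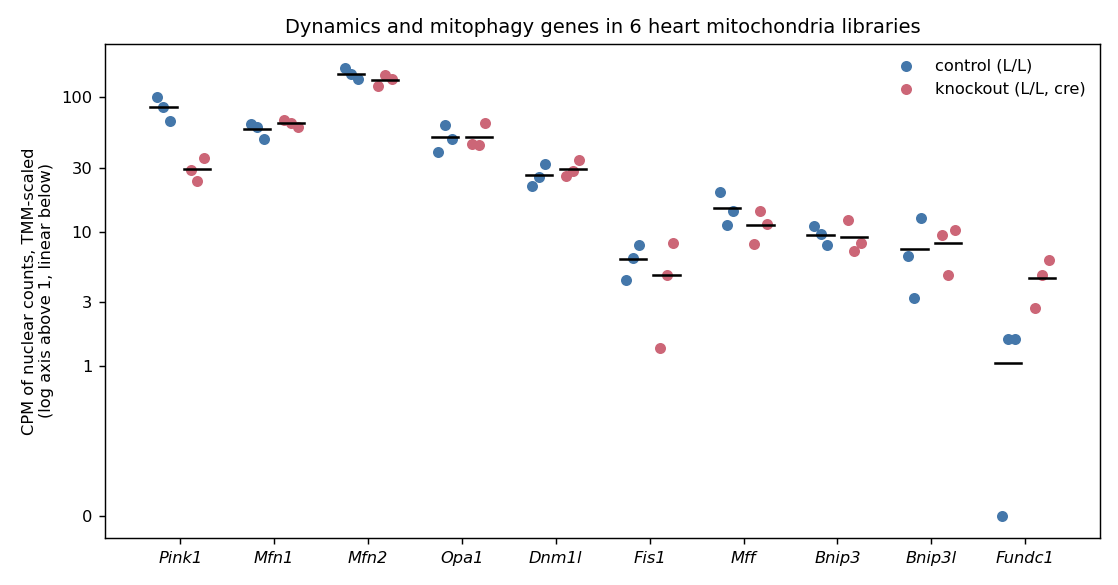
Level of each gene in the 6 libraries in CPM of nuclear counts (TMM-scaled; log axis above 1, linear below), with blue points for control mice, red points for knockout mice and black bars for the mean of 3. Pink1 lies between 66.8 and 101 CPM in controls and between 23.8 and 35.2 CPM in knockouts, while the points of Mfn1, Mfn2, Opa1 and Dnm1l overlap and those of Fis1, Mff, Bnip3, Bnip3l and Fundc1 rest on few counts.

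Pink1 (ENSMUSG00000028756, chromosome 4, 138313409 to 138326307, minus strand, GRCm38) encodes the kinase that marks damaged mitochondria. It had 46, 53 and 42 counts in control mice 1, 2 and 3, and 21, 20 and 34 counts in knockout mice 1, 2 and 3. In CPM these are 101, 84.7 and 66.8 in controls and 28.6, 23.8 and 35.2 in knockouts. All 3 knockouts lay below all 3 controls, even in raw counts and although the knockout libraries held more nuclear counts. The mean fell from 84.2 ± 17.2 to 29.2 ± 5.69 CPM (mean ± SD of 3; by edgeR a log2 fold change of -1.49 ± 0.22 SE, 95% interval -1.92 to -1.06, adjusted p = 6.44e-08), which is 2.81-fold lower. Among the 2351 tested genes, 17 had a lower log2 fold change and 38 a smaller p. The groups did not overlap in 32.8% of all tested genes, and in 15.9% the knockouts lay below the controls. In the authors' deposited table, which covers 9 of the 10 genes, Pink1 has a log2 fold change of -1.46 with a false discovery rate of 8.53e-09 and is the sole one of the 9 at a rate under 0.05. The direction depends on measuring against nuclear transcripts: against total library sizes with no further scaling, a setting added after seeing the data that moves the median log2 fold change of nuclear genes to 2.06, Pink1 was at 0.51 and did not pass the test (edgeR adjusted p = 0.0682).

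Markers of 3 of 6 cell types, macrophages, smooth muscle cells with pericytes, and fibroblasts, were lower in summed level in every knockout than in every control, and those of the other 3 overlapped. Of the 7 tested heart muscle markers, 4 were lower and 0 higher, where 6.85% of all tested genes were lower and 8.46% higher. The median log2 fold change of the heart muscle markers was -0.35, and their summed levels overlapped between groups. The log2 ratio of Pink1 counts to the summed counts of these markers moved from -8.03 ± 0.48 in control mice to -9.47 ± 0.28 with the knockout (mean ± SD of 3). The groups did not overlap (exact permutation p = 0.1, the smallest that 3 against 3 allows) and the difference was -1.44, beside the fitted change of -1.49. Since 4 of the 7 markers were themselves lower, Ryr2 among them at a log2 fold change of -1.22, this ratio is no measure of Pink1 per amount of muscle. Macrophage markers summed to 79.9 to 121 CPM in controls and 35.4 to 41.4 CPM in knockouts, with 2 of 2 tested lower out of 6 and Cd14 at 0 in all knockouts. Smooth muscle and pericyte markers summed to 310 to 365 CPM against 185 to 275 CPM (2 of 4 tested lower, of 6), and fibroblast markers to 1803 to 1940 CPM against 1568 to 1801 CPM (1 of 7 lower). Endothelial markers overlapped at 449 to 625 CPM in controls and 368 to 493 CPM in knockouts, with 0 of 6 tested called. Erythroid markers overlapped at 147 to 321 CPM and 158 to 289 CPM, with 0 of 4 tested called. The part of the non-muscle cells in the Pink1 result was not tested.

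The sequence upstream of Pink1 is shown because it is the promoter of the member whose transcript differed, from chr4:138326308-138326546 on the minus strand (RefSeq, GRCm38.p6). It is written 5′ to 3′ and ends at the base before the annotated gene, with 11 transcribed bases of the table's upstream window left out.
Pink1: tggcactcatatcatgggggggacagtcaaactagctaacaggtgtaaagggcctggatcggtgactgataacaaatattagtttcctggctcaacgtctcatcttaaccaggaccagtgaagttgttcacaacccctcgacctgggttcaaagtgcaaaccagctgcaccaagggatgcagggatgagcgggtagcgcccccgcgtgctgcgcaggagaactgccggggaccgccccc
Its 239 bases have a GC content of 56.1%. It was searched on both strands for the hypoxia response core ACGTG, the E-box CACGTG (which holds ACGTG within it and forms the core of the lysosomal gene element), the forkhead site GTAAACA, the antioxidant element TGACNNNGC, the amino acid response core TGATGNAA and the oestrogen-related receptor half-site AAGGTCA. None of these letters occur in this window, so nothing in it is in capitals. Among 32851 promoters of the same table, the 250 bases upstream hold ACGTG in 16.6%, CACGTG in 6.02%, GTAAACA in 3.17%, TGACNNNGC in 10.2%, TGATGNAA in 3.45% and AAGGTCA in 4.08%. Of the 10 genes, 9 have a promoter there, of which Mfn2 and Bnip3 hold ACGTG, Bnip3 holds CACGTG and 0 hold any of the other 4 motifs.

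The fusion genes did not pass the test, and their intervals were narrow enough to leave little room for a change of the size of Pink1. Mfn2 (ENSMUSG00000029020, chromosome 4, 147873599 to 147904704) encodes the mitofusin that also tethers mitochondria to the endoplasmic reticulum. It had 165, 149 and 137 CPM in controls and 123, 148 and 138 CPM in knockouts, with the groups overlapping (edgeR log2 fold change -0.13 ± 0.15 SE, adjusted p = 0.622). The 95% interval of its knockout level ran from 0.743 to 1.12 times the control level. Mfn1 (ENSMUSG00000027668, chromosome 3, 32529465 to 32579239), the other mitofusin, had 63.8, 60.7 and 49.3 CPM in controls and 68.1, 64.4 and 60.0 CPM in knockouts. Its groups overlapped, with an edgeR log2 fold change of 0.15 ± 0.20 SE (adjusted p = 0.676) and an interval from 0.847 to 1.46 times the control level. Opa1 (ENSMUSG00000038084, chromosome 16, 29579334 to 29654884), the dynamin-like GTPase of the inner membrane, had 39.6, 62.3 and 49.3 CPM in controls and 45.0, 44.1 and 64.1 CPM in knockouts. Its edgeR log2 fold change was 0.011 ± 0.22 SE (adjusted p = 0.984), with an interval from 0.748 to 1.36 times the control level, and its sign turned under several settings of the processing. For each of these 3 genes the lower bound of the interval lay above 0.480, the upper bound for Pink1.

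Dnm1l (ENSMUSG00000022789, chromosome 16, 16312230 to 16358959), which encodes the fission GTPase DRP1, had 22, 25.6 and 31.8 CPM in controls and 25.9, 28.6 and 34.1 CPM in knockouts. The groups overlapped, and the edgeR log2 fold change was 0.15 ± 0.28 SE (adjusted p = 0.775) with an interval from 0.756 to 1.63 times the control level. Its adaptors were too low for the test. Mff (ENSMUSG00000026150, chromosome 1, 82724890 to 82752394), the main receptor of DRP1 on mitochondria, had 9, 7 and 9 counts in controls and 6, 12 and 11 in knockouts. Relative to library size, knockouts had 0.780 times the control counts (95% Poisson interval 0.441 to 1.39). Fis1 (ENSMUSG00000019054, chromosome 5, 136953275 to 136966234), an outer membrane anchor first known as a fission factor, had 2, 4 and 5 counts in controls and 1, 4 and 8 in knockouts, a ratio of 0.795 (0.329 to 1.96). Counts of both adaptors overlapped between the groups once scaled. Such intervals account for counting alone. The listed processing tools name no step for molecular identifiers, and repeated reads of a molecule can make the intervals too narrow.

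The mitophagy receptors were low in this preparation. Bnip3 (ENSMUSG00000078566, chromosome 7, 138890836 to 138909519), a receptor known to be induced by hypoxia, had 5, 6 and 5 counts in controls and 9, 6 and 8 in knockouts. After scaling its groups overlapped at 11, 9.59 and 7.96 CPM in controls and 12.3, 7.15 and 8.27 CPM in knockouts, a ratio of 0.967 (95% Poisson interval 0.489 to 1.96). Bnip3l (ENSMUSG00000022051, chromosome 14, 66985239 to 67008877), whose product NIX clears mitochondria from maturing red cells, had 3, 2 and 8 counts in controls and 7, 4 and 10 in knockouts, a ratio of 1.09 (0.519 to 2.36). A near-identical copy, Bnip3l-ps, had 0, 1 and 1 counts in controls and 2, 0 and 2 in knockouts, and how reads shared by both were counted is not known, so the values of Bnip3l are uncertain. Fundc1 (ENSMUSG00000025040, chromosome X, 17556564 to 17572325), a receptor for mitophagy under low oxygen, had 0, 1 and 1 counts in controls and 2, 4 and 6 in knockouts. All 3 knockouts lay above all 3 controls, at a ratio of 4.04 whose 95% Poisson interval from 0.899 to 37.1 includes no difference. Differences within these 3 intervals were not detectable at this depth.

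The sequence upstream of Bnip3 is shown because its promoter, unlike that of Pink1, holds letters of the hypoxia core and of the E-box. It lies at chr7:138909520-138909756 on the minus strand (RefSeq, GRCm38.p6), written 5′ to 3′ up to the base before the annotated gene, with the matches in capitals.
Bnip3: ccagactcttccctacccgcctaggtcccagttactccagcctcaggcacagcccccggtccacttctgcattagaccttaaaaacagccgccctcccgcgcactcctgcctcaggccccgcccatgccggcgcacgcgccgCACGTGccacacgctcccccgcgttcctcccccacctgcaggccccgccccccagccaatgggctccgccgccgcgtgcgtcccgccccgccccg
The 237 bases have a GC content of 72.6%. The capitals are a single CACGTG, which reads as ACGTG on either strand. ACGTG also occurs upstream of Mfn2 and in 16.6% of the 32851 promoters searched. A match of letters is a description of the sequence and does not show that a factor binds there.

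Set against each other per length, Pink1 and Mfn2 were the most abundant of the 10 in controls, at 31.5 ± 6.42 and 28.9 ± 2.71 CPM per kilobase of merged exon (SD, n = 3 each), with library ranges that overlapped. Mfn1 followed at 9.48 ± 1.25, apart from its neighbours on each side. Below it came Opa1 at 6.40 ± 1.45, Dnm1l at 5.09 ± 0.96, Bnip3 at 4.20 ± 0.67, Fis1 at 3.65 ± 1.04, Bnip3l at 1.95 ± 1.25 and Mff at 1.55 ± 0.45 CPM per kilobase, each overlapping the next, and Fundc1 was lowest at 0.45 ± 0.39. In knockouts Mfn2 led at 26.2 ± 2.44 CPM per kilobase, and Pink1, at 10.9 ± 2.13, lay at the level of Mfn1 (10.5 ± 0.66), with overlapping ranges. The order from Mfn1 to Bnip3l was the same in both groups, while Fundc1 (1.94 ± 0.74) and Mff (1.16 ± 0.31) stood in the opposite order at overlapping ranges. Merged exons count every annotated isoform, so a gene with many unused exons, such as Mff with 9757 bases, has a level per kilobase that may be too low.

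**Figure D2:**
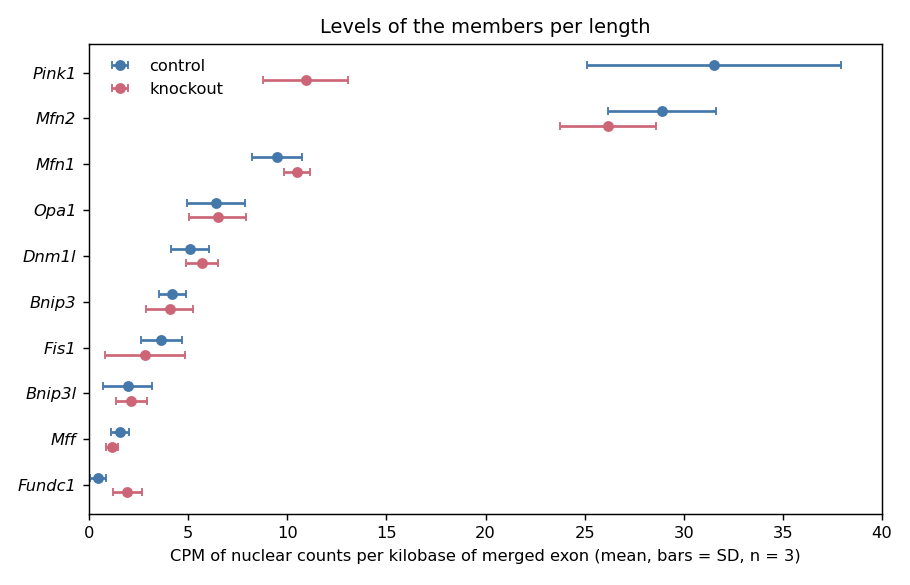
Level of each gene per kilobase of merged exon, in CPM of nuclear counts per kilobase (mean with SD bars, n = 3 per group), with controls in blue and knockouts in red. Pink1 is at 31.5 in controls and 10.9 in knockouts, and the SD bars of the 2 groups overlap for Mfn2, Mfn1, Opa1, Dnm1l, Bnip3, Fis1, Bnip3l and Mff.

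Ratios of genes within a library need no scaling between libraries. The log2 ratio of Pink1 to Mfn2 counts was -0.71, -0.81 and -1.03 in controls and -2.10, -2.63 and -1.97 in knockouts, which do not overlap. The log2 ratio of Pink1 to Mfn1 was 0.67, 0.48 and 0.44 in controls and -1.25, -1.43 and -0.77 in knockouts, so that Pink1 had more counts than Mfn1 in every control and fewer in every knockout. Against 7 of the 8 other members with counts in all libraries the knockouts lay below the controls, by between -1.11 (Mff) and -1.80 (Bnip3l) on the log2 scale, and against Fis1 the groups overlapped (difference -0.84, which was -1.57 without knockout 1, -0.47 without control 1, -0.53 without knockout 2 and -0.42 without knockout 3). The 8 ratios share the counts of Pink1 and are not separate evidence. Among the pairs without Pink1, the log2 ratio of Mfn2 to Mfn1 was 1.37, 1.29 and 1.47 in controls and 0.85, 1.2 and 1.2 in knockouts. These do not overlap, although neither mitofusin passed the test alone, and the difference of -0.30 was -0.18 without knockout 1. The ratios of Bnip3l to Bnip3, of Mff to Fis1 and of Opa1 to Dnm1l overlapped, with differences of 0.34, 0.27 and -0.14. Over the 12 ratios, the exact permutation p of each that did not overlap was 0.1, the smallest that 3 against 3 allows, and 0.15 after Benjamini-Hochberg adjustment.

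**Figure D3:**
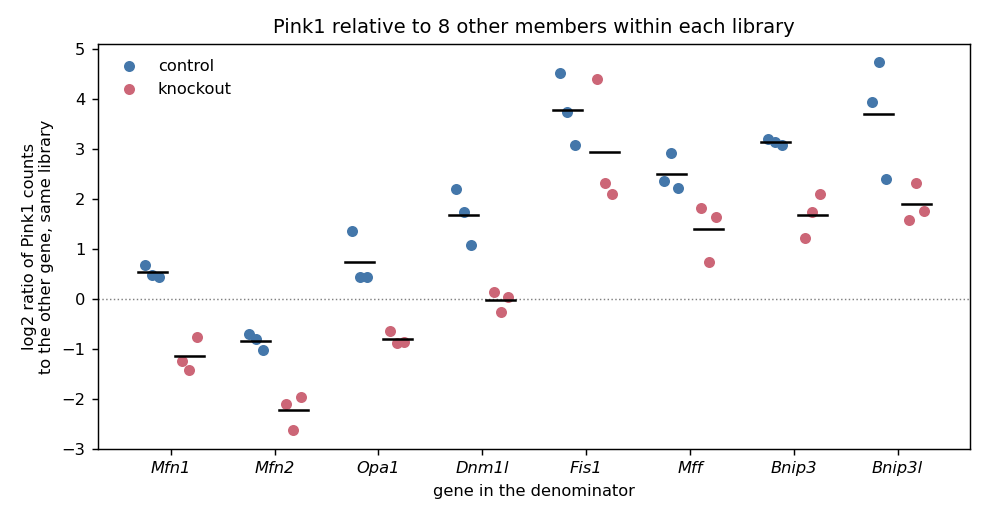
Log2 ratio of Pink1 counts to the counts of 8 other genes of the group within the same library, with controls in blue, knockouts in red and black bars for the mean of 3. The points of the 2 groups do not overlap for any gene but Fis1, where knockout 1, with 1 count of Fis1, lies among the controls.

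The rest of the machinery was described through 8 lists of 115 genes, of which 46 passed the low-count filter. Of these, 6 were higher and 0 lower in knockouts (edgeR adjusted p under 0.05), with 40 not past the test, where 8.46% of all tested genes were higher and 6.85% lower. Among the 6, Optn, Dnajc11 and Opa3 had 14, 15 and 9 counts over all controls and passed the filter through the knockouts alone. Without the filter Optn and Opa3 kept their calls (edgeR adjusted p = 9.25e-05 and 2.94e-04) and Dnajc11 did not (0.0816). The median log2 fold change of the 46 was 0.17, against -0.0068 over all tested genes. It was smaller, at 0.068, 0.073 and 0.075, without knockout 2, control 1 or knockout 3, at 0.068 and 0.081 with TMM over all genes or nuclear totals without TMM, and at 0.040 over genes with a count in all 6 libraries, with other numbers of genes tested in all but the nuclear totals. On nuclear totals without TMM the median over all tested genes moved down too, to -0.10. In the other settings named it lay between -0.015 and 0.0064.

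In the list of ubiquitin-dependent mitophagy downstream of PINK1, 2 of 6 tested members of 16 rose and 0 fell. Sqstm1, which encodes p62, an adaptor that links ubiquitin-marked cargo to the autophagosome, had 52.8, 46.4 and 43.0 CPM in controls and 151, 90.6 and 129 CPM in knockouts. Every knockout lay above every control, a 2.62-fold rise (edgeR log2 fold change 1.39 ± 0.19 SE, adjusted p = 2.11e-08). Optn, which encodes optineurin, an adaptor of the same kind recruited to ubiquitin-tagged mitochondria, had 8.80, 6.39 and 9.55 CPM in controls and 43.6, 31.0 and 20.7 CPM in knockouts. It rose 3.71-fold, again without overlap (edgeR log2 fold change 1.89 ± 0.38 SE, adjusted p = 1.03e-04). In the same hearts the adaptors Nbr1 (-0.20 ± 0.28 SE) and Tax1bp1 (0.07 ± 0.31 SE) did not pass the test, nor did Vcp, the segregase that extracts ubiquitylated membrane proteins (0.24 ± 0.20 SE, log2). Usp30, a deubiquitinase of the mitochondrial outer membrane, had 1 count in controls and 4 in knockouts, too few to compare.

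In the list of fusion and OPA1 processing, 2 of 5 tested members of 13 rose and 0 fell. Opa3, a mitochondrial membrane protein named for its link to optic atrophy and not a fusion GTPase, had 4.40, 6.39 and 4.77 CPM in controls and 19.1, 28.6 and 23.8 CPM in knockouts. The groups did not overlap and the rise was 4.44-fold (edgeR log2 fold change 2.15 ± 0.44 SE, adjusted p = 1.38e-04), on 9 control and 61 knockout counts. Without knockout 2 or knockout 3, Opa3 did not pass the low-count filter and was not tested. Afg3l2, a subunit of the inner membrane AAA protease, was at 30.3 ± 6.94 CPM in controls and at 50.9 ± 5.18 CPM in knockouts (mean ± SD of 3), a 1.69-fold rise (edgeR adjusted p = 0.0235). This call was lost without control 2 (adjusted p = 0.212) or knockout 1 (0.0738), on nuclear totals without TMM (0.10), with TMM over all genes (0.0521), without the low-count filter (0.0808) and with DESeq2 (0.275). Yme1l1, the protease that cleaves OPA1 (0.33), and Phb2, a scaffold of the inner membrane (0.63), had log2 fold changes that did not pass the test. Oma1, the stress-activated protease of OPA1, had 9 counts in controls and 7 in knockouts.

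Of the 4 tested fission regulators of 16, 0 passed the test. Dnm2, a dynamin studied in membrane scission, had the highest of these log2 fold changes at 0.99 ± 0.37 SE (edgeR adjusted p = 0.0533). In the cristae organising complex, 1 of 5 tested of 9 rose. It was Dnajc11, a partner of the complex, from 8.98 ± 1.74 to 22.1 ± 10.5 CPM (mean ± SD of 3; 2.40-fold, edgeR adjusted p = 0.0260), a call that was lost without control 1, 2 or 3 (adjusted p 0.0516, 0.103 and 0.0999), without the low-count filter (0.0816) and with DESeq2 (0.234). Without knockout 1, the highest at 34.1 CPM against 17.9 and 14.5 CPM, or without knockout 2, it did not pass the low-count filter and was not tested. Immt, which encodes mitofilin, the core of that complex, was at 87.2 ± 15.9 CPM in controls and 97.1 ± 17.2 CPM in knockouts (mean ± SD of 3) and did not pass the test (edgeR log2 fold change 0.14 ± 0.17 SE). The other mitophagy receptors had 0 of 5 tested called, of 12, among them Bcl2l13, a receptor related to the BCL-2 family, at -0.06 ± 0.32 SE (log2). Core autophagy genes had 0 of 11 tested called, of 31, with a median log2 fold change of -0.07. Map1lc3b, the autophagosome protein that the adaptors bind, was among them at -0.07 ± 0.34 SE and Ulk1, the initiating kinase of the mitophagy receptor list, was at -0.47 ± 0.31 SE. The transport genes had 0 of 5 tested called, of 9.

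Among transcription factors known to act on these genes, 1 of 5 tested of 9 rose and 0 fell. Hif1a, the oxygen-regulated factor that is known to act on the Bnip3 promoter, had 22, 16 and 19.1 CPM in controls and 58.6, 46.5 and 48.6 CPM in knockouts. The groups did not overlap, and the rise was 2.70-fold (edgeR log2 fold change 1.43 ± 0.27 SE, adjusted p = 2.77e-05). Epas1, which encodes the related HIF-2 alpha, was at -0.24 ± 0.16 SE, Foxo3, a forkhead factor known to act on Bnip3 and autophagy genes, at -0.37 ± 0.24 SE and Ppargc1a, the coactivator of mitochondrial biogenesis, at 0.33 ± 0.28 SE on the log2 scale, none of which passed the test. Transcript levels do not measure HIF-1 alpha protein, which is mainly set by its degradation.

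**Figure D4:**
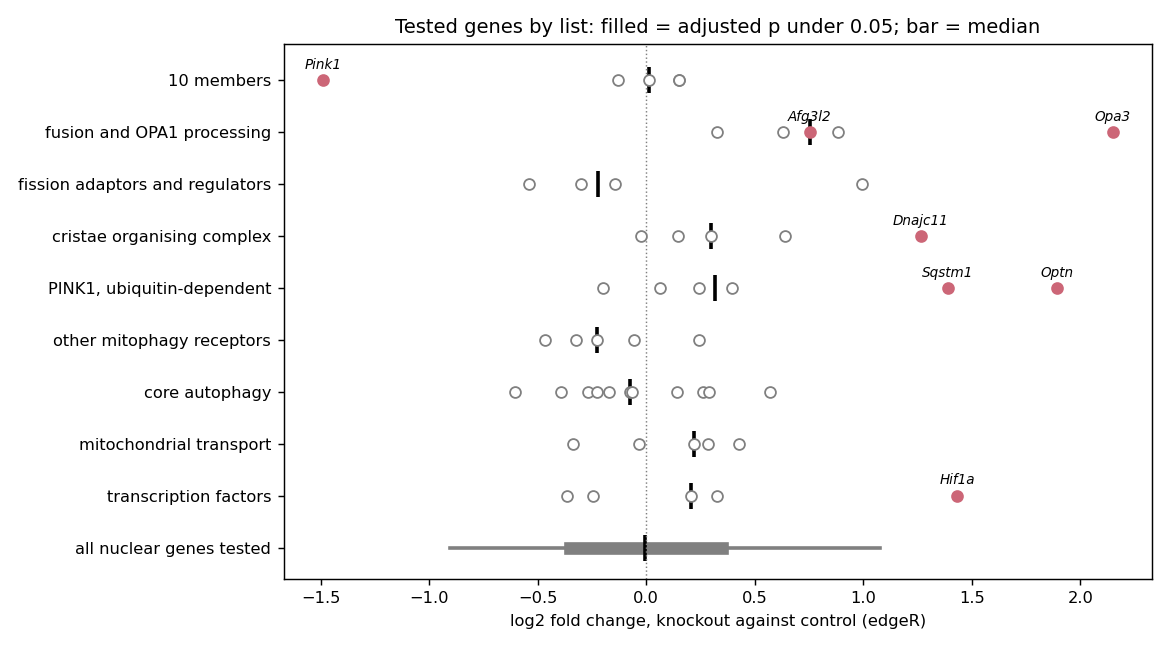
Log2 fold change of knockout against control for each tested gene by list (filled red circles for an edgeR adjusted p under 0.05, open circles for the others, black bars for the list's median). The grey line at the bottom spans the middle 90% of all 2351 tested genes, with its thick part for the middle 50%. With nuclear scaling Pink1, at -1.49, is the sole filled point left of 0, and the 6 others called lie at or above 0.75.

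The genes whose levels followed Pink1 most closely over the 6 libraries, among tested protein-coding genes, were Mcam (Pearson r = 0.998), Lbh (0.985) and Lrig1 (0.983), computed on log2(CPM + 1). These values describe likeness across 6 libraries that fall into 2 groups and carry no test, and a high r mostly restates that the groups differ. Mcam, a cell adhesion molecule of vessel walls, had 33.0, 28.8 and 23.9 CPM in controls and 12.3, 10.7 and 15.5 CPM in knockouts. Lbh, a transcription cofactor of the developing heart, fell from a mean of 85.9 to 48.8 CPM, and Lrig1, an inhibitor of growth factor receptors, from 19.97 to 5.13 CPM.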

How the data were processed

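Gene counts of 6 libraries, 3 control and 3 knockout, were used. The build was GRCm38 and reads went through HISAT 0.1.6 and featureCounts 1.3.5-p4, with edgeR 3.11.2 under R 3.2.0 also listed, per the submitters' processing notes. Strand use, multi-mapped reads and annotation release were not given in the sources used here. Raw counts per gene, as whole numbers, are what the authors deposited. Per the file headers, the authors' deposited comparison gives log2 fold changes and log2 CPM values, a likelihood ratio score, p-values and false discovery rates for 6319 genes. A second deposited set of normalised values was not used here.

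Symbols, positions and merged exon lengths came from GENCODE M21 (GRCm38), which named 37570 of 39142 nuclear rows. The 35 mtDNA rows were left out of the fit and of the library sizes. Genes passing filterByExpr (minimum count 10, minimum total 15) were tested with edgeR 4.0.16 (R 4.3.3; TMM, robust quasi-likelihood, no covariate), with Benjamini-Hochberg adjustment over all 2351 tested genes. SE and 95% intervals are those implied by the F statistic. Genes under the filter got a count ratio with a 95% Poisson (conditional binomial) interval. Ratios within libraries were compared by 2-sided exact permutation tests (scipy 1.17.1). Alternatives included DESeq2 1.42.0, other scalings and filters, a replicate block and leaving out each library.

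Replicates differed by more than sampling noise (chi-square per degree of freedom 1.43 to 12.7), and all were kept as separate samples. The highest values, 12.7 and 7.21, were those of knockout 3 against knockouts 1 and 2. Knockouts 1 and 2 were at 2.46, and pairs of controls at 1.43 to 2.60. The members and lists were chosen with earlier results of these data known, so the members' counts are descriptions. Named genes were the 10 members, the called genes of the 8 lists, up to 20, and the 3 protein-coding genes most like a called member. Other list genes were named after their values were seen, and list genes not named were counted in their lists.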

Additional observations from a re-analysis of the deposited data

How the results depend on the processing

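Pink1 kept its direction and its call under 9 settings of scaling, filter and test, the one reported included (log2 fold change -1.58 to -1.45, highest adjusted p 1.10e-04, with DESeq2) and without any 1 library (-1.64 to -1.34). Against total library sizes without TMM, added after seeing the data, Pink1 was at 0.51, 6 members were called higher and 0 lower, and the log2 fold changes of Mfn2 (1.88), Mff (1.62) and Bnip3 (1.92) turned sign. Under that setting 58 list genes were called higher, and of nuclear genes 3324 higher and 2 lower. Nuclear genes called were 199 higher and 161 lower, against 93 and 50 with DESeq2, 142 and 177 on nuclear totals without TMM, and 99 lower without the low-count filter. Leaving out 1 library gave 151 to 195 higher and 106 to 147 lower, the lowest without knockout 1, and 4 to 6 list genes higher. Opa1, near 0, was at -0.0041 with DESeq2's size factors, -0.082 on nuclear totals without TMM, -0.064 with TMM over all genes and -0.0028 with DESeq2, and between -0.18 and 0.19 without 1 library. The within-library differences that turned sign without 1 library were those of Bnip3l to Bnip3 (-0.18 to 0.95), Mff to Fis1 (-0.25 to 0.81) and Opa1 to Dnm1l (-0.29 to 0.037). Same-numbered control and knockout libraries did not deviate together (r -0.010, 0.005 and 0.07). This gives no sign that the numbers pair the mice, but so few libraries cannot exclude pairing. With the replicate block, 203 genes were higher and 162 lower, and Pink1 was at -1.49 (adjusted p = 6.12e-07). Depth limits the 5 members under the filter, which were not tested.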

Other observations

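Among the 69 list genes under the low-count filter, 5 had no count in any library. Named after their values were seen, Htra2, a protease of the intermembrane space, had 0 counts in every control and 5, 4 and 2 in knockouts, which is at least 2.47-fold higher if the control group is set at 3 counts in all. Bag2, a co-chaperone reported to stabilise PINK1, had 4 counts in controls and 21 in knockouts, a ratio of 3.53 (95% Poisson interval 1.19 to 14.2). Its groups overlapped after scaling, with control 3 at 4.77 CPM and knockout 3 at 4.14 CPM. Slc25a46, an outer membrane protein of the fusion and cristae machinery, had 7, 3 and 3 counts in controls and 15, 11 and 17 in knockouts, a ratio of 2.23 (1.17 to 4.51). Its groups overlapped too, with control 1 at 15.4 CPM and knockout 2 at 13.1 CPM. Park7, which encodes DJ-1, had 1, 2 and 9 counts in controls and 10, 10 and 14 in knockouts, a ratio of 1.91 (0.963 to 4.04) with groups that overlapped after scaling. Other genes under the filter went the other way. Every knockout lay below every control for Tomm20 (ratio 0.561), Mul1 (0.642), Src (0.374) and Foxo1 (0.602). Every knockout lay above every control for Parl (1.72) and Pgam5 (2.02). Each of these ratios had a Poisson interval that included no difference. These intervals cover counting error only and were picked out of 69 genes, so they carry no call. Separation of the groups alone says little, since they did not overlap in 32.8% of all 2351 tested nuclear genes.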
